A study of Mus musculus with 12 samples.

Results

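Pre-B cells were compared with pro-B cells negative for a human CD4 (hCD4) reporter, using the 2 arrays titled pre-B and the 2 arrays titled hCD4- pro-B, which are 4 of the 12 arrays of the series. Both groups came from the bone marrow of female C57BL/6 mice, 16 weeks old, that carry the Cebpa-Enh/prom-hCD4 reporter, in which Cebpa enhancer and promoter sequence drives human CD4. The pro-B cells lacked the reporter at the surface, and for the pre-B cells the labels do not state hCD4. The surface markers behind each sort are not given in the sources used here, the series title speaks of a pair of mice, and no label says which animal a replicate came from. The p-values therefore reflect how far these particular samples differ, which may be technical. The other 4 groups of 2 arrays (hCD4+ granulocyte-monocyte progenitors (GMP), hCD4- and hCD4+ pre-pro-B cells, hCD4+ pro-B cells) entered the same model and are cited only beside a pre-B value.

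As background, a pro-B cell rearranges its immunoglobulin heavy chain genes, and a functional heavy chain pairs with the surrogate light chain, made of λ5 (Igll1) and VpreB (Vpreb1 and Vpreb2), to form the pre-B cell receptor. Signals from that receptor and from the interleukin 7 receptor drive a burst of division. The cell then leaves the cycle, silences the surrogate light chain and rearranges its light chain genes as a small pre-B cell.

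The promoters of the 3 surrogate light chain genes are shown because these genes fell together, and that of Cish because it is a textbook target of STAT5, the factor below the interleukin 7 receptor. The windows are RefSeq sequence of build GRCm38.p6 and hold 300 bases around each gene start. Capitals mark matches on either strand to CCCNNGGG, the palindrome bound by Ebf1, and to CAGGTG, an E-box bound by E2A, in the first 3 windows, and to TTCNNNGAA, the STAT palindrome, in the Cish window.
Igll1 promoter, chr16:16863936-16864235, strand -: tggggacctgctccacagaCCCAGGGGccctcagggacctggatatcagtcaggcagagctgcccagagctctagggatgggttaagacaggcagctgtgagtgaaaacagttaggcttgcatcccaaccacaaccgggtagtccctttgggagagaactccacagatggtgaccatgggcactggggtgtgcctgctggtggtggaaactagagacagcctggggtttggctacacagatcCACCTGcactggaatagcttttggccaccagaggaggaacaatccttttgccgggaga
Vpreb1 promoter, chr16:16869206-16869505, strand -: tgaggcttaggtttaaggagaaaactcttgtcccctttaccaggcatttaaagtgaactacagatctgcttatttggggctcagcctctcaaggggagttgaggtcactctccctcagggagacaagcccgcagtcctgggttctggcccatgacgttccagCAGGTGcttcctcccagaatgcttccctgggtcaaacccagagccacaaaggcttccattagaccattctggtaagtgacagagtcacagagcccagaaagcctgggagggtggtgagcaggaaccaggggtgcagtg
Vpreb2 promoter, chr16:17980315-17980614, strand +: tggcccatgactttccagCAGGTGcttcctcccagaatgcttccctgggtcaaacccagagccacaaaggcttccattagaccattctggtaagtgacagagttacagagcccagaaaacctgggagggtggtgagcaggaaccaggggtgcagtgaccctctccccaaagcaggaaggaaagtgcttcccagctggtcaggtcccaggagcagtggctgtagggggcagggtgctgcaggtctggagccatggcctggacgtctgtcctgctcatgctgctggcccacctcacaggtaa
Cish promoter, chr9:107296409-107296708, strand +: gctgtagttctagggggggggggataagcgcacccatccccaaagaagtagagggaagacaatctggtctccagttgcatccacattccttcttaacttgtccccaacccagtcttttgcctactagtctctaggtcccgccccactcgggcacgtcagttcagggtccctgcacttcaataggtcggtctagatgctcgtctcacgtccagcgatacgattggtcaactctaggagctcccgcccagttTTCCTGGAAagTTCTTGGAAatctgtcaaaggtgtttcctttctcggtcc
The Igll1 window held 1 match to CCCNNGGG and 1 to CAGGTG. The Vpreb1 and Vpreb2 windows held 1 match to CAGGTG each and 0 to CCCNNGGG. The Cish window held 2 matches to TTCNNNGAA. Of all 32851 promoter windows of 300 bases, 13.7% held CCCNNGGG, 20.2% CAGGTG and 8.3% TTCNNNGAA. A match is a description of the letters and not a measured binding site. The Vpreb1 and Vpreb2 windows share an unbroken run of 91 bases, since the genes are close copies, and whether a probe for one also reads the other was not tested.

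Levels below are log2 of the processed signal of a gene's probe minus the 75th percentile of its own array, so 0 is the brightness of that percentile. A change is the mean pre-B level minus the mean hCD4- pro-B level, given with its standard error (SE) from a limma model over all 12 arrays. A gene rose or fell where its p-value, adjusted over all 18556 genes tested, was under 0.05. In all, 7621 genes passed (41.1%), with 3654 higher (19.7%) and 3967 lower (21.4%) in pre-B cells, and the median change was 0.03. Among them, 3496 changed by over 1, with 1814 higher and 1682 lower. Leaving out 1 array left 5340 (pre-B 1), 4692 (pre-B 2), 5144 (hCD4- pro-B 1) and 4688 (hCD4- pro-B 2) genes. Subtracting the array median in place of the 75th percentile kept the total near this count (7537) but moved the split to 2621 higher and 4916 lower, and the median change to -0.16.

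The signal at the 75th percentile was 639 and 435 in the pre-B arrays and 624 and 719 in the hCD4- pro-B arrays, and 56.1% and 53.7% against 55.4% and 54.5% of probes were well above background. Replicates correlated at 0.991 in both groups, and arrays of different groups at 0.952 to 0.960, over genes, which are not independent replicates. The pre-B arrays share a slide and scan with the hCD4+ pro-B arrays, and the hCD4- pro-B arrays lie on another slide, so for this comparison the slide cannot be told apart from the group. For that reason the change against the hCD4+ pro-B arrays of the same slide is given below for many genes. It shares the pre-B arrays and differs in the reporter gate.

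The defining markers followed the labels. The B lineage markers Cd79a, Cd79b, Ebf1, Pax5 and Ptprc were well above background on all 4 arrays. Of 6 pro-B markers (Kit, Dntt, Igll1, Vpreb1, Spn and Bst1), 6 fell in pre-B cells, against 21.4% of all genes. Of 6 pre-B markers (Il2ra, Cd2, Ms4a1, Cd22, Ikzf3 and Irf4), 6 rose, against 19.7% of all genes, with Cd22 passing narrowly. In the plot of all genes, Igj and S100a8 lie farthest below the diagonal among those labelled there.

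**Figure D1:**
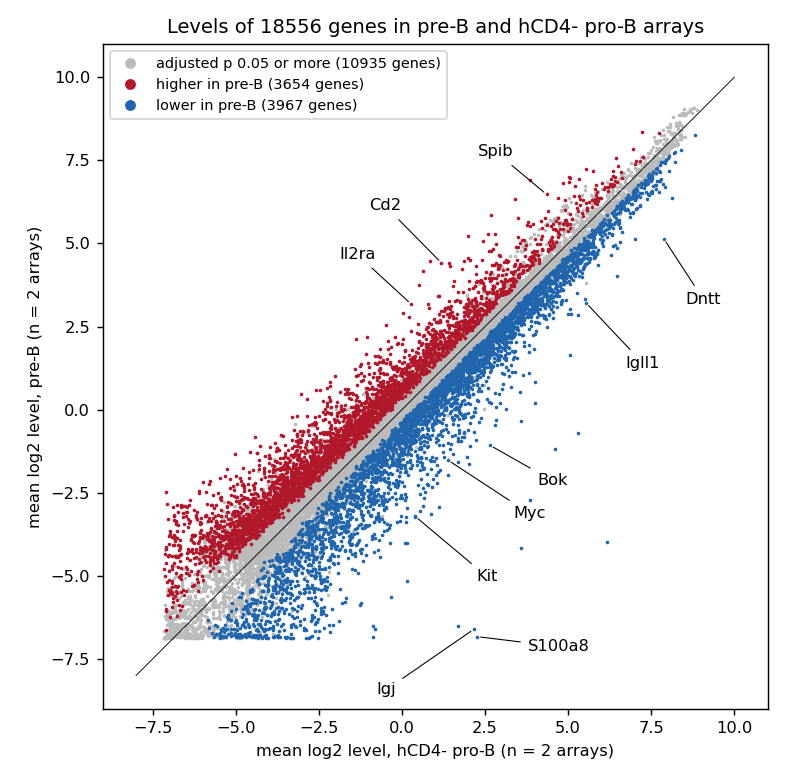
Mean log2 level of each of 18556 genes in pre-B arrays (vertical axis, n = 2) and in hCD4- pro-B arrays (horizontal axis, n = 2). Red points are the 3654 genes higher in pre-B, blue points the 3967 lower, grey points the rest, and the line marks equal levels.

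The surrogate light chain fell in pre-B cells while the signalling chains of the receptor did not. Igll1, which encodes λ5, stood at 3.21 and 3.21 in the pre-B arrays, against 5.42 and 5.65 in the hCD4- pro-B arrays. Vpreb2 had levels of 3.32 and 3.36 in pre-B, against 5.41 and 5.63 in hCD4- pro-B. Vpreb1 stood at 6.43 and 6.32, against 8.16 and 8.08. In each of these genes both pre-B arrays lay below both pro-B arrays, as in every gene that fell. The changes were -2.33 ± 0.29 for Igll1 (adjusted p = 0.000604, 5.02-fold lower), -2.18 ± 0.37 for Vpreb2 (adjusted p = 0.00247, 4.53-fold lower) and -1.75 ± 0.21 for Vpreb1 (adjusted p = 0.000581, 3.35-fold lower). In these bulk samples, fewer cells that express a gene and less RNA per cell cannot be told apart.

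Cd79b, the Igβ signalling chain, rose by 0.89 ± 0.12 (adjusted p = 0.000977), with levels of 7.79 and 7.90 in pre-B against 6.97 and 6.93 in hCD4- pro-B cells. Its partner Cd79a, the Igα chain, changed by 0.25 ± 0.28 (adjusted p = 0.503). Vpreb3, which binds immunoglobulin chains inside the cell, was among the brightest genes at 8.06 and 8.20 against 7.97 and 7.97, and did not pass (0.16 ± 0.63, adjusted p = 0.858). Against the hCD4+ pro-B arrays on the same slide, the pre-B arrays differed by -1.81 for Igll1, -1.66 for Vpreb2, -1.32 for Vpreb1 and 1.50 for Cd79b.

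**Figure D2:**
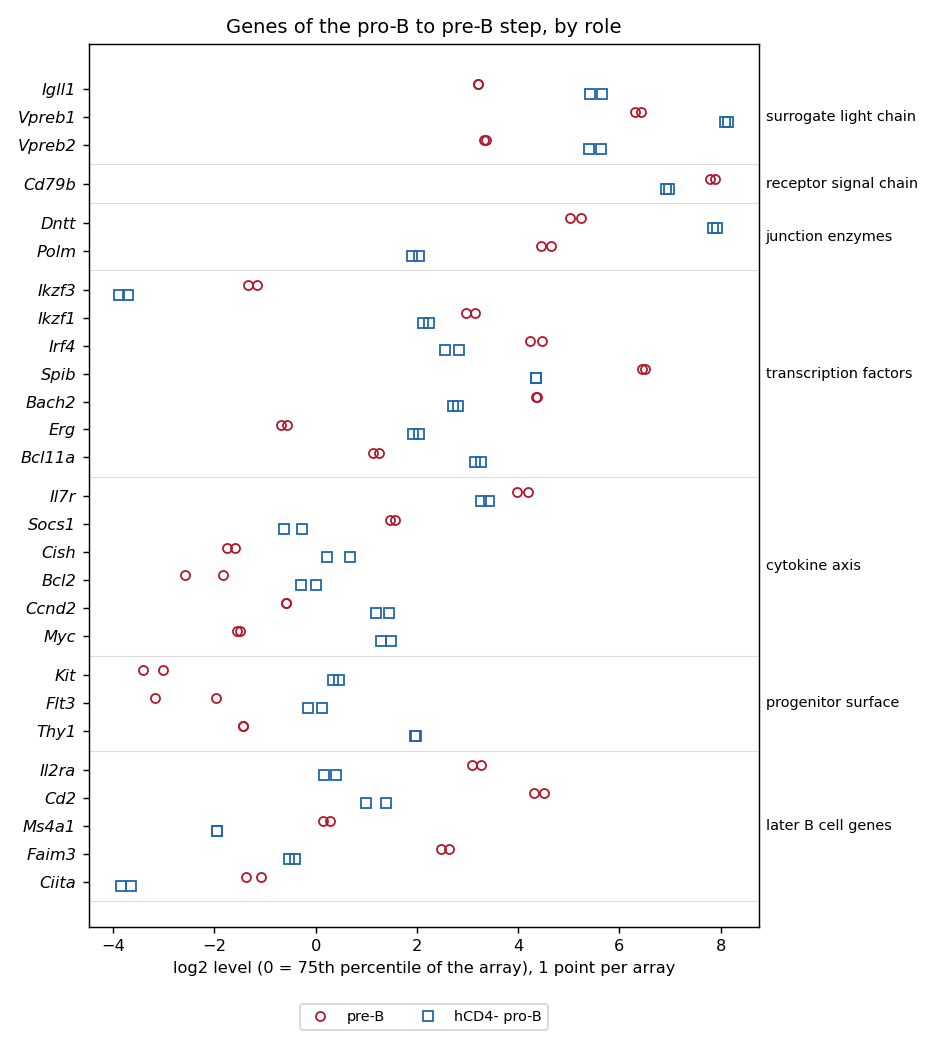
Log2 level of 27 genes on each of the 2 pre-B arrays (red circles) and the 2 hCD4- pro-B arrays (blue squares), grouped by role; 0 is the 75th percentile of an array. All genes shown passed the test, and in every one the 2 groups do not overlap, as held for all 7621 genes that passed.

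Below the receptor, 9 of 33 signalling genes rose (27.3%, against 19.7% of all genes) and 6 fell (18.2%, against 21.4%), with a median change of 0.21. Under array median scaling 6 rose and 11 fell, with a median of 0.03. Without hCD4- pro-B array 2 the number that fell was 3, without pre-B array 2 it was 4, and without either pre-B array the number that rose was 6. Kinases and negative regulators of B cells were among those that rose. Lyn, a Src-family kinase that phosphorylates the receptor chains, stood at 0.64 and 0.44 in pre-B against -1.09 and -1.07 in hCD4- pro-B (1.62 ± 0.14, adjusted p = 9.23e-05). Blk, another Src-family kinase of B cells, rose by 1.60 ± 0.27, the adaptor Dok3 by 1.70 ± 0.29 and the inhibitory lectin Siglecg by 1.43 ± 0.20. Kinases better known from T cells were lower, with Fyn at -1.24 ± 0.22 and Zap70 at -1.37 ± 0.29. The Zap70 call was lost without hCD4- pro-B array 2 (-1.22), and against hCD4+ pro-B cells its change was -0.06 (adjusted p = 0.897). Btk (-0.04, adjusted p = 0.865) and Blnk, the linker that Syk phosphorylates (-0.43, adjusted p = 0.0515), did not pass.

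Among genes of V(D)J recombination, the enzymes that process coding ends changed most. Dntt, terminal transferase, which adds untemplated nucleotides at junctions, was at 5.24 and 5.02 in pre-B and at 7.93 and 7.85 in hCD4- pro-B arrays. It fell by 2.76 ± 0.14 (adjusted p = 2.2e-05), a 6.76-fold lower signal. Its relatives in the same polymerase family moved in opposite directions. Polm, polymerase μ, which in mice acts at light chain junctions, had levels of 4.64 and 4.45 against 2.05 and 1.90 and rose 5.95-fold (2.57 ± 0.19, adjusted p = 6e-05). Poll, polymerase λ, which acts at heavy chain junctions, had levels of -0.21 and -0.29 against 1.59 and 1.43 and fell by 1.75 ± 0.26 (adjusted p = 0.00148).

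Brwd1, a chromatin reader that targets recombination to the κ locus in mouse pre-B cells, rose by 1.70 ± 0.16, and Dclre1c, the Artemis nuclease that opens hairpin ends, by 0.93 ± 0.18. Rag1, the recombinase, averaged about 1 log2 unit higher but did not pass (0.99 ± 0.35, adjusted p = 0.054), with 4.09 and 4.02 in pre-B against 3.09 and 3.04 in hCD4- pro-B arrays. Its call is close to the threshold, since it passed under 8 of the 16 alternatives. Rag2 was at 1.76 and 1.87 against 1.93 and 1.84 (-0.07 ± 0.31, adjusted p = 0.878). In all, 5 of 21 recombination and end joining genes rose (23.8%, against 19.7% of all genes) and 7 fell (33.3%, against 21.4%). Their median change was -0.18. Without any 1 of the 4 arrays these counts were 3 and 4, and in the authors' deposited table they were 7 and 6.

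Few immunoglobulin probes carry a gene name, and they differed in direction. Igk-C, the κ constant gene, had levels of -2.80 and -2.94 in pre-B arrays and was not well above background on either hCD4- pro-B array. The signal was at least 3.87-fold higher in pre-B. For this bound the dimmer group was set no lower than the dimmest probe well above background on its arrays. The limma fit used levels without that limit (2.71 ± 0.21, adjusted p over probes = 7.23e-05). The same holds for every adjusted p printed beside a bound below. Of the variable gene probes, Igkv5-39 changed by -0.60 ± 0.19 (adjusted p over probes = 0.0375), and Igkv4-53, not well above background in hCD4- pro-B, did not pass (0.18). The array annotation gives 4 probes the same name, Igh-VJ558. Their sequences are shown because the positions do not bear out a single shared gene, so the values are given by probe. Probes a, b and c lie close together on chromosome 12 of mm9, and probe d lies far from them. The probe named Ighg (chr12:114542525-114542584) lies near a, b and c. Whether a, b and c read the gene family named Igh-VJ558 was not tested, so their values are not taken as those of variable genes. The letters are the probes' own.
Igh-VJ558 probe a, chr12:114496985-114497044, strand -: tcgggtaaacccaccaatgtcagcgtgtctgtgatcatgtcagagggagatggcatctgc
Igh-VJ558 probe b, chr12:114497090-114497149, strand -: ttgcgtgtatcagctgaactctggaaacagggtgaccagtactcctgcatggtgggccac
Igh-VJ558 probe c, chr12:114498348-114498407, strand -: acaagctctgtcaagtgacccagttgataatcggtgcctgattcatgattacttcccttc
Igh-VJ558 probe d, chr12:116610609-116610667, strand -: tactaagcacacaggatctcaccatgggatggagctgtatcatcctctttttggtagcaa
Probe a was at -4.93 and -3.02 in the pre-B arrays, well above background on 1 of the 2, and at 6.21 and 6.11 in the hCD4- pro-B arrays (-10.13 ± 1.58, adjusted p over probes = 0.00179). Probe b was not well above background in pre-B and stood at 5.42 and 5.17 in hCD4- pro-B, at least 865-fold lower in pre-B (adjusted p over probes = 0.00157). Probe c was not well above background in pre-B either and stood at -0.14 and -0.15 in hCD4- pro-B, at least 21.2-fold lower in pre-B (adjusted p over probes = 0.000111). Probe d had -2.04 and -1.29 against -2.41 and -2.47 and rose by 0.78 ± 0.22 (0.0247). Probes a, b and c were also bright in hCD4- pre-pro-B arrays, with means of 5.99, 5.25 and -1.11, and low in hCD4+ pro-B arrays, where each was well above background on 1 of 2 arrays. Igj, the joining chain of secreted antibody, averaged 1.96 in hCD4- pre-pro-B arrays and is given with the other blood cell genes.

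Of the transcription factors of the B lineage, the founding factors did not pass the test, with changes of 0.06 ± 0.43 for Ebf1, 0.37 ± 0.31 for Pax5, 0.40 ± 0.19 for Tcf3 (E2A) and 0.22 ± 0.13 for Foxo1 (adjusted p = 0.923, 0.365, 0.127 and 0.205). Against hCD4+ pro-B arrays of the same slide, Pax5 (0.97, adjusted p = 0.0335), Tcf3 (1.07, 0.0024) and Foxo1 (0.83, 0.00132) were higher in pre-B. Ebf1 did not pass there either (0.62, 0.281). Of 41 factors listed, 13 rose (31.7%, against 19.7% of all genes) and 8 fell (19.5%, against 21.4%), with a median of 0.30, and under array median scaling 10 rose and 10 fell. Without pre-B array 1 the count that rose was 10, and without hCD4- pro-B array 1 the count that fell was 5.

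Those that rose include factors tied to the end of the pre-B receptor stage in mice. Ikzf3, Aiolos, stood at -1.34 and -1.15 in pre-B against -3.71 and -3.88 in hCD4- pro-B arrays and rose 5.84-fold (2.54 ± 0.31, adjusted p = 0.000547). Its relative Ikzf1, Ikaros, rose by 0.88 ± 0.13. Irf4, which acts in light chain recombination, had 4.48 and 4.24 against 2.84 and 2.55 (1.66 ± 0.16, adjusted p = 0.000188). Its family member Irf8 did not pass (0.16 ± 0.12, adjusted p = 0.348). Spib, an Ets factor of B cells, had 6.44 and 6.51 against 4.35 and 4.35 (2.12 ± 0.19, adjusted p = 0.000125). The other Ets factor of this pair, Sfpi1 (PU.1), was dim and rose by 0.99 ± 0.29 (adjusted p = 0.0262), a call that was lost without any 1 of the 4 arrays (0.96 to 1.02) and in 6 other settings. Bach2, a repressor that acts at the pre-B checkpoint in mice, rose by 1.60 ± 0.26, the NF-κB subunit Relb by 1.49 ± 0.11 and Id2, an inhibitor of E proteins, by 1.34 ± 0.27. Against hCD4+ pro-B arrays of the same slide the changes were 2.03 for Ikzf3, 2.90 for Irf4, 2.76 for Spib and 2.70 for Bach2, and 0.06 for Sfpi1 (adjusted p = 0.882).

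Erg and Bcl11a were among the 8 factors that fell. Erg, an Ets factor needed in mouse pro-B cells, stood at -0.56 and -0.69 in pre-B against 2.04 and 1.92 in hCD4- pro-B (-2.60 ± 0.51, adjusted p = 0.00481). Bcl11a, a zinc finger factor of early B cells, fell by 2.01 ± 0.10 (adjusted p = 2.2e-05) at its brightest probe, while its other probe changed by 0.29. Id3 fell by 1.04 ± 0.34 (adjusted p = 0.0397), lost without pre-B array 2 (-0.72) or either hCD4- pro-B array (-0.85 and -1.23). Lef1, a partner of β-catenin, had 3.85 and 3.76 against 5.44 and 5.66, but its model error was large (-1.74 ± 0.71, adjusted p = 0.0831). Bcl6, a repressor that rises after interleukin 7 withdrawal in mouse pre-B cells, was at 0.92 and 0.82 against 0.78 and 0.81 (0.08 ± 0.19, adjusted p = 0.758). Against hCD4+ pro-B arrays of the same slide Bcl6 was higher (1.25, adjusted p = 0.00101). There Erg changed by -2.06 (0.012), Bcl11a by -2.63 (2.73e-06), Id3 by 0.06 (0.909) and Lef1 by -0.47 (0.639).

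The interleukin 7 axis held changes in both directions. Of its 19 genes 4 were higher (21.1%, against 19.7% of all genes) and 9 lower (47.4%, against 21.4%), with a median of -0.41. Without pre-B array 2 or either hCD4- pro-B array, 6 were lower. The receptor chain Il7r rose by 0.74 ± 0.14 (adjusted p = 0.00442), with 4.19 and 3.97 against 3.43 and 3.26. Myc, the growth regulator, was at -1.49 and -1.54 in pre-B against 1.29 and 1.48 in hCD4- pro-B, a 7.49-fold lower signal (-2.90 ± 0.37, adjusted p = 0.00067). Ccnd2, cyclin D2, was at -0.59 and -0.58 against 1.19 and 1.46 (-1.91 ± 0.25, adjusted p = 0.000756). Bcl2, the survival gene, was at -1.84 and -2.58 against 0.00 and -0.29 (-2.06 ± 0.27, adjusted p = 0.00071). The kinase Jak3, which couples to the common γ chain, fell by 1.59 ± 0.33.

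The feedback inhibitors of this axis did not move together. Cish, whose promoter is printed above, fell by 2.13 ± 0.58 (adjusted p = 0.0195), with -1.59 and -1.75 against 0.22 and 0.69, and the call was lost without any 1 of the 4 arrays (-2.36 to -1.90). Socs3 (-2.16 ± 0.69) was likewise lost without any 1 array (-2.44 to -1.89). Socs2 fell by 1.17 ± 0.18, but against the hCD4+ pro-B arrays its change was -0.22 (adjusted p = 0.387). Socs1 rose by 1.96 ± 0.18 (adjusted p = 0.000156), with 1.46 and 1.58 in pre-B against -0.26 and -0.63 in hCD4- pro-B. Pim2, a serine kinase, rose by 1.89 ± 0.34.

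The Myc network and ribosome biogenesis genes fell most broadly, with 25 of 34 lower (73.5%, against 21.4% of all genes) and 2 higher (5.88%, against 19.7%). Their median was -0.88, against 0.03 over all genes. Leaving out 1 array left 19 to 21 lower. Srm, spermidine synthase, was at 0.28 and 0.64 against 2.96 and 2.88 (-2.46 ± 0.16, adjusted p = 3.96e-05). The nucleolar genes Nolc1 and Mybbp1a fell by 1.61 ± 0.13 and by 1.59 ± 0.13, Polr1b, a subunit of RNA polymerase I, by 1.53 ± 0.20, and Wdr12, a ribosome assembly factor, by 1.30 ± 0.12. Mxd1, which competes with Myc for the partner Max, rose by 2.07 ± 0.18 at its brightest probe and by 0.47 at the other.

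Of 21 glycolysis genes 13 fell (61.9%, against 21.4% of all genes) and 2 rose (9.52%, against 19.7%), with a median of -0.86. Ldha, lactate dehydrogenase, was at 4.81 and 4.93 in pre-B and 6.46 and 6.48 in hCD4- pro-B (-1.60 ± 0.13, adjusted p = 7.15e-05). Pfkm, a phosphofructokinase, fell by 1.63 ± 0.16, Pdk1, which blocks pyruvate entry to mitochondria, by 1.63 ± 0.23, the hexokinase Hk2 by 1.48 ± 0.32 and the glucose transporter Slc2a3 by 1.28 ± 0.14. The 2 that rose are lactate transporters, Slc16a1 (0.88) and Slc16a3 (0.79), which were named after their values were seen. Without pre-B array 1 or hCD4- pro-B array 2 the count of rises was 0, and without either of the other arrays it was 1.

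**Figure D3:**
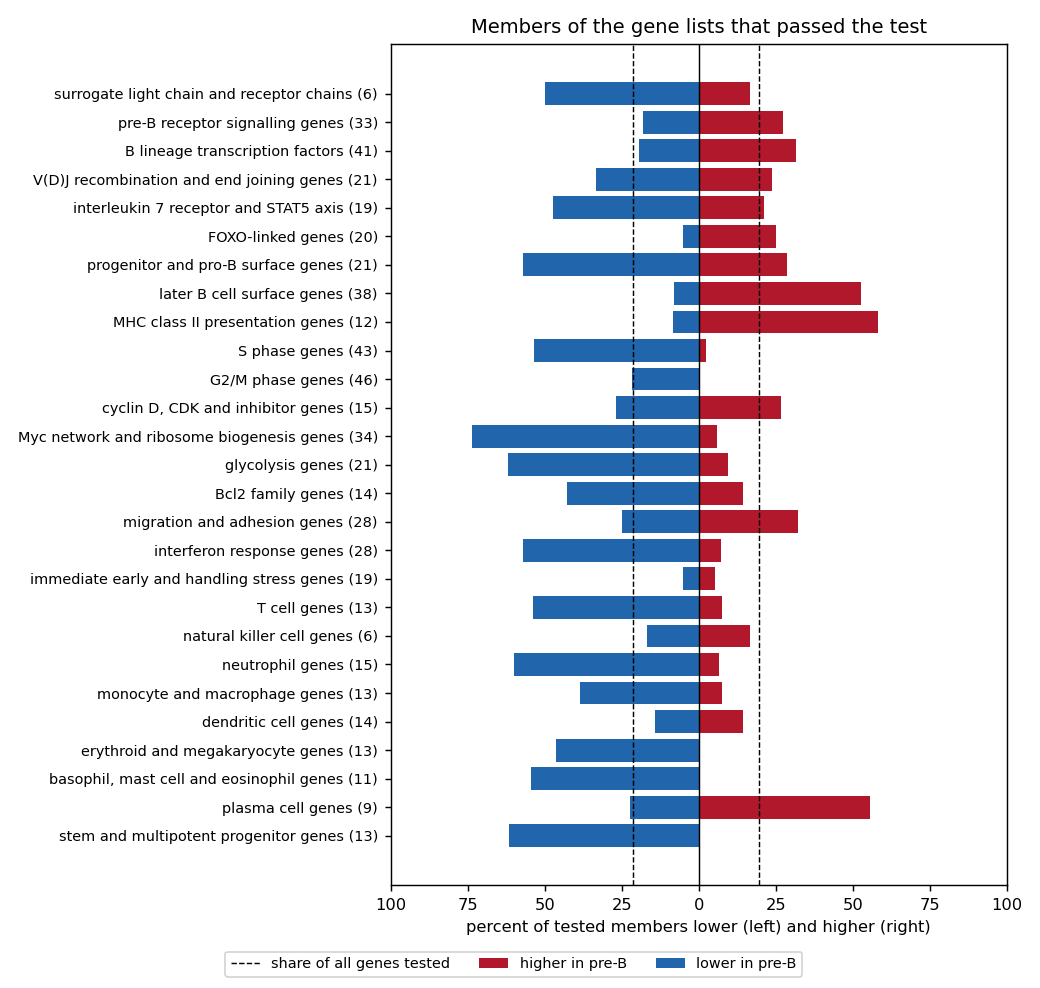
Percent of tested members of each gene list that fell (blue, left) and rose (red, right) in pre-B against hCD4- pro-B arrays; the number tested is in brackets. Dashed lines mark the 21.4% of all genes that fell and the 19.7% that rose, and Myc network genes, with 25 of 34 lower, reach farthest left.

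Of 43 S phase genes, 23 fell and 1 rose (median -0.44), against 10 lower and 0 higher of 46 G2/M genes (median -0.18). The lower share was 53.5% for S phase and 21.7% for G2/M genes, against 21.4% of all genes. In the other settings that kept all 4 arrays 13 to 30 S phase and 2 to 11 G2/M genes were lower, with 5 G2/M genes lower and 3 higher in the authors' deposited table. Leaving out 1 array reduced these to 11 to 13 and to 1 or 2 lower, the fewest S phase genes without pre-B array 2 and the fewest G2/M genes without hCD4- pro-B array 1. Mki67, a marker of cycling cells, was at 6.42 and 6.41 in pre-B against 6.50 and 6.39 in hCD4- pro-B (-0.03 ± 0.16, adjusted p = 0.902), so the 2 groups overlapped. The replicative helicase subunit Mcm6 was at 5.44 and 5.46 against 6.33 and 6.39 (-0.91 ± 0.12), and the chromatin assembly gene Chaf1b fell by 1.08 ± 0.13. The only S phase gene that rose, cyclin Ccne2, was at least 2.59-fold higher, not well above background in hCD4- pro-B, and its change against hCD4+ pro-B was -0.14 (adjusted p = 0.635).

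Among 15 D cyclins, CDKs and inhibitors, 4 fell (26.7%, against 21.4% of all genes) and 4 rose (26.7%, against 19.7%). Cdk6, a partner of D cyclins, fell by 2.20 ± 0.35, Cdk4 by 0.93 ± 0.11 and the inhibitor Cdkn1a (p21) by 1.30 ± 0.27, with its other probe at -2.61. Rb1, the retinoblastoma gene, rose by 0.70 ± 0.11. The inhibitors Cdkn1b (p27, 0.49), Cdkn2c (0.52) and Cdkn2d (0.37) passed by small margins. Under array median scaling these 3 were not called, and the number of rises was 1 without pre-B array 1 or either hCD4- pro-B array and 2 without pre-B array 2. Ccnd3, the D cyclin that mouse pre-B cells need, did not pass (-0.34 ± 0.15, adjusted p = 0.104).

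Of 14 Bcl2 family genes 6 fell (42.9%, against 21.4% of all genes) and 2 rose (14.3%, against 19.7%), with a median of -0.45. Bok, a relative of Bax and Bak1, was at -1.05 and -1.10 in pre-B and 2.66 and 2.64 in hCD4- pro-B (-3.72 ± 0.23, adjusted p = 3.42e-05). Bcl2l1, which encodes the survival protein Bcl-xL, had 5.68 and 5.37 against 4.59 and 4.35 and rose by 1.05 ± 0.16, opposite to Bcl2. Bmf, a BH3-only death gene, rose by 1.29 ± 0.35 (adjusted p = 0.0192), lost without either pre-B array (1.27 and 1.30) or hCD4- pro-B array 1 (1.04), which left 1 rise. The BH3-only gene Bid fell by 1.37 ± 0.15. Of 20 FOXO-linked genes 5 rose (25%, against 19.7% of all genes) and 1 fell (5%, against 21.4%), with a median of 0.51. Those that rose include Btg1, an antiproliferative gene (1.07 ± 0.14), and Ccng2 (0.81 ± 0.16). Without pre-B array 1 or either hCD4- pro-B array 3 rose.

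Of 21 surface genes of progenitors, 12 fell (57.1%, against 21.4% of all genes) and 6 rose (28.6%, against 19.7%), with a median of -0.81. Kit, the stem cell factor receptor, was at -3.01 and -3.42 in pre-B and 0.34 and 0.47 in hCD4- pro-B, 12.3-fold lower (-3.62 ± 0.18, adjusted p = 2.2e-05). Emb, embigin, fell by 2.97 ± 0.19 and the adhesion receptor Gpr56 by 2.01 ± 0.22. Flt3, the receptor of multipotent and early lymphoid cells, fell by 2.55 ± 0.33 at its brightest probe and changed by -3.88 and 0.73 at the others. Thy1, a marker that early mouse lymphoid cells can carry, was at -1.43 and -1.43 against 1.96 and 1.98 (-3.40 ± 0.17). Among stem and multipotent progenitor genes 8 of 13 fell (61.5%, against 21.4% of all genes) and 0 rose (0%, against 19.7%), with a median of -1.87. They include the homeobox genes Hoxa7 (-2.60 ± 0.13) and Meis1 (-1.87 ± 0.14) and Lmo2 (-2.12 ± 0.15). The summed linear signal of this list, in units of each array's 75th percentile, was 2.83 to 3.31 in pre-B and 12.3 to 12.5 in hCD4- pro-B.

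Of 38 surface genes of later B cells, 20 rose (52.6%, against 19.7% of all genes) and 3 fell (7.89%, against 21.4%), with a median of 0.74. Fewer rose without any 1 of the arrays. Il2ra, CD25, the marker that gates small pre-B cells in mice, was at 3.26 and 3.09 in pre-B against 0.39 and 0.16 in hCD4- pro-B, 7.47-fold higher (2.90 ± 0.33, adjusted p = 0.000369). Cd2, an adhesion receptor, had 4.52 and 4.32 against 1.39 and 0.99 (3.23 ± 0.23, adjusted p = 4.97e-05). Ms4a1, CD20, had 0.15 and 0.29 against -1.96 and -1.96 (2.18 ± 0.16, adjusted p = 6.22e-05). None of these overlapped between the groups, and neither did any other of the 7621 genes that passed. Faim3, the receptor for IgM, rose by 3.02 ± 0.22, the Fc receptor-like genes Fcrla and Fcrl1 by 2.70 ± 0.24 and by 2.46 ± 0.35, and Cd38, an ectoenzyme, by 2.34 ± 0.15. Cd22, an inhibitory lectin, passed narrowly (0.88 ± 0.30, adjusted p = 0.0477) and was lost without any 1 array (0.69 to 1.08). P2rx7, an ATP-gated channel, was at least 4.95-fold lower, and its other probes changed by -0.17 and -1.04. Against the hCD4+ pro-B arrays the changes were 4.21 for Il2ra, 4.15 for Cd2 and 3.87 for Ms4a1.

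Of 12 class II presentation genes, 7 rose (58.3%, against 19.7% of all genes) and 1 fell (8.33%, against 21.4%), with a median of 0.82. Fewer rose without pre-B array 1 or hCD4- pro-B array 2. Ciita, their master coactivator, was at -1.09 and -1.37 against -3.64 and -3.84 (2.51 ± 0.19, adjusted p = 6.65e-05). H2-Aa rose by 2.31 ± 0.32, H2-Eb1 by 2.32 ± 0.42 and the invariant chain Cd74 by 2.35 ± 0.53. The Cd74 call was lost without pre-B array 1 (2.15) or hCD4- pro-B array 2 (1.85). The 1 that fell, H2-Oa (-0.44), was lost without any 1 array, and the H2-DMb1 rise without pre-B array 1 (0.69) or hCD4- pro-B array 2 (0.73). H2-DMb2 passed (2.21) although no array of either group measured it well above background. Within the slide, against hCD4+ pro-B cells, Cd74 changed by 0.72 (adjusted p = 0.316), H2-Eb1 by 1.09 (0.0685) and Ciita by 1.72 (0.00021). There H2-DMb1, which rose by 0.77 ± 0.19 here, changed by -0.92 (0.00492). Dendritic cells also carry class II. Of 14 dendritic cell genes 2 rose (14.3%, against 19.7% of all genes) and 2 fell (14.3%, against 21.4%). Those that rose were Cox6a2 and Siglech, whose other probes changed by -0.58 and 0.31, and those that fell were Flt3 and Bst2. The summed signal of these 14 genes was 132 to 143 in pre-B and 98.5 to 98.8 in hCD4- pro-B arrays. The brightest Siglech probe, at 6.85 and 7.01 against 6.24 and 6.31, makes up most of these sums. Against hCD4+ pro-B arrays of the same slide 12 of the 14 genes were lower in pre-B and 0 higher. There Cox6a2 changed by -2.02 (adjusted p = 0.000465) and Siglech by 0.36 (0.152). Without pre-B array 1 or hCD4- pro-B array 2 no dendritic cell gene rose. Their part in the class II result was not tested.

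Of 28 genes of migration and adhesion, 9 rose (32.1%, against 19.7% of all genes) and 7 fell (25%, against 21.4%), with a median of 0.27. Under array median scaling 7 rose and 8 fell, with a median of 0.08. Cxcr4, which holds B precursors near stromal cells, was at 2.90 and 2.93 in pre-B against 2.11 and 1.76 in hCD4- pro-B (0.98 ± 0.16, adjusted p = 0.00225). The chemokine receptor Ccr7 rose by 1.84 ± 0.32, the signalling regulator Rgs2 by 1.38 ± 0.18 and the cannabinoid receptor Cnr2 by 1.20 ± 0.23. Itgal, the LFA-1 α chain, fell by 1.59 ± 0.15, with other probes at -1.78 and 0.62. Ptk2, focal adhesion kinase, was at least 3.01-fold lower, and its relative Ptk2b rose by 1.11 ± 0.19.

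The largest rises among genes measured on all 4 arrays were outside these lists, except Cd2 and Faim3. Rims1, a synaptic scaffold gene, changed most (3.63 ± 0.74, adjusted p = 0.00575), but its arrays spread widely, with 3.77 and 5.15 in pre-B against 1.51 and 0.16 in hCD4- pro-B. The collagen genes Col25a1 and Col5a3 rose by 3.60 ± 0.28 (1.70 at another probe) and 3.54 ± 0.33. Rasgrp1, a Ras activator, had 2.15 and 2.07 against -1.10 and -1.64 (3.48 ± 0.22, adjusted p = 3.43e-05). Prm1, a sperm protamine, rose by 3.24 ± 0.48, the metalloprotease Adam19 by 3.23 ± 0.27, Fam101a by 3.17 ± 0.16, the RNA-binding gene Rbm24 by 3.02 ± 0.28 and the claudin Cldn10 by 2.96 ± 0.13. Pllp (3.08), Etnk2 (3.05, with another probe at 1.45), Klhl14 (3.20) and Elk4 (3.03) complete these 15. The Elk4 rise was seen at 1 of 3 probes, the others changing by -0.06 and -0.04. It was lost without pre-B array 2 (2.45) or hCD4- pro-B array 2 (2.42), and Klhl14 without any 1 array (2.997 to 3.40). Against hCD4+ pro-B arrays Rims1 changed by 0.98 (adjusted p = 0.326) and Elk4 by 1.06 (0.27), whereas Rasgrp1 changed by 4.49.

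Of the largest falls, Kit, Bok and Thy1 were described above. Ctla2a, a protease inhibitor, fell most (-3.99 ± 0.48, adjusted p = 0.000529), with -2.89 and -3.38 in pre-B against 0.88 and 0.84 in hCD4- pro-B. The adhesion receptor Gpr97 had -0.19 and -0.48 against 3.64 and 3.53 (-3.92 ± 0.26). The membrane protein gene Emp1 fell by 3.79 ± 0.38, Egfl7, a secreted factor best known from vessels, by 3.42 ± 0.21, and Nfe2, a factor of platelet and red cell precursors, by 3.51 ± 0.32. Rnase12, Galnt6, Ttll9, Myl10, Dfna5, Phldb1 and Klk8 fell by 3.67, 3.60, 3.55, 3.35, 3.35, 3.34 and 3.27, and another Galnt6 probe changed by -0.78. Against hCD4+ pro-B arrays the changes were -4.57 for Ctla2a, -4.97 for Gpr97 and -3.25 for Emp1.

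Some genes were measured in only 1 of the groups. In both pre-B arrays and no hCD4- pro-B array, 491 genes were well above background, and 451 the other way. For these the fold is a lower bound, as for Igk-C. Rdh1 was at least 8.06-fold higher in pre-B, a bound of 4.67-fold without pre-B array 2 and 13.9-fold without pre-B array 1, the phosphatase Dusp26 at least 6.24-fold, Egfl6 at least 6.00-fold and Sspn at least 5.41-fold. Tmem200b was at least 5.12-fold, Arhgap19 at least 4.95-fold and Psg28 at least 4.93-fold higher. Mrgprg did not pass (adjusted p = 0.0844), and its bound of 5.37-fold was 2.19-fold without pre-B array 2 and 13.2-fold without pre-B array 1. Within the slide, Rdh1, Arhgap19 and Psg28 changed by 0.21, 0.17 and 0.32 (adjusted p = 0.82, 0.922 and 0.683), and the bounds were 5.78-fold higher for Dusp26 and 5.55-fold for Egfl6. The Arhgap19 call was lost without any 1 of the 4 arrays (2.74 to 4.47).

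The largest lower bounds in the other direction were genes of other blood cells, which the hCD4- pro-B arrays measured and the pre-B arrays did not. S100a8, a neutrophil alarmin, was at -6.99 and -6.67 in pre-B, not well above background, against 2.69 and 1.83 in hCD4- pro-B, at least 112-fold lower (adjusted p = 0.00285). Its partner S100a9, measured on 1 of 2 pre-B arrays, was at -3.96 and -4.39 against 4.01 and 3.15 (-7.75 ± 1.44). Ltf, lactoferrin, was at least 13.5-fold lower. Of 15 neutrophil genes 9 fell (60%, against 21.4% of all genes) and 1 rose (6.67%, against 19.7%), with a median of -2.19. Their summed signal was 14.3 to 22.2 in pre-B and 36.9 to 41.3 in hCD4- pro-B arrays. Against hCD4+ pro-B arrays none of S100a8, S100a9 and Ltf passed (adjusted p = 0.08, 0.536 and 0.259). The 1 neutrophil gene that rose, Elane (0.92), was named after its values were seen, and none rose without pre-B array 2 or either hCD4- pro-B array.

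Igj had levels of -6.78 and -6.44 in pre-B, not well above background, and 2.37 and 1.96 in hCD4- pro-B, at least 105-fold lower (adjusted p = 0.000149), and against hCD4+ pro-B it did not pass (adjusted p = 0.2). On the plasma cell list 5 of 9 genes rose (55.6%, against 19.7% of all genes). The 2 that fell (22.2%, against 21.4%) were Igj itself and Xbp1. Prdm1, the plasma cell repressor, rose by 1.60 ± 0.35, Sdc1, CD138, by 1.50 ± 0.18 and Slamf7 by 1.02 ± 0.17, and Xbp1 fell by 0.73 ± 0.14. The summed signal of this list was 30.6 to 35.0 in pre-B and 20.8 to 25.6 in hCD4- pro-B. Irf4, described above with the B lineage factors, is also on this list and among those that rose. At 4.48 and 4.24 in pre-B against 2.84 and 2.55 in hCD4- pro-B, Irf4 makes up most of the pre-B sum. The sum was not computed without it. Without hCD4- pro-B array 2 the number that rose was 3, and the Prdm1 call was lost (1.17). Whether antibody-secreting cells took part in the signals of Igj and of probes a, b and c in the hCD4- pro-B arrays was not tested.

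In the list of basophil, mast cell and eosinophil genes 6 of 11 fell (54.5%, against 21.4% of all genes) and 0 rose (0%, against 19.7%). Their median was -2.27, with summed signals of 0.382 to 0.426 in pre-B and 2.18 to 2.44 in hCD4- pro-B. Mcpt8, a basophil protease, was at least 12.7-fold lower in pre-B, and Prss34, another, measured on 1 of 2 pre-B arrays, had -4.71 and -5.58 against 0.09 and 0.21 (-5.30 ± 0.54). Against hCD4+ pro-B arrays of the same slide Mcpt8 was at least 33.8-fold lower in pre-B. Pf4, platelet factor 4, was at least 12.7-fold lower and Gata1 at least 7.21-fold lower. Of 13 erythroid and megakaryocyte genes 6 fell (46.2%, against 21.4% of all genes) and 0 rose (0%, against 19.7%). Their median was -1.16, with summed signals of 5.30 to 6.36 in pre-B and 7.30 to 7.65 in hCD4- pro-B. The remaining bounds were 11.5-fold for Cst7, 9.95-fold for Kcng1 and 9.84-fold for Fam69b, all lower in pre-B.

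**Figure D4:**
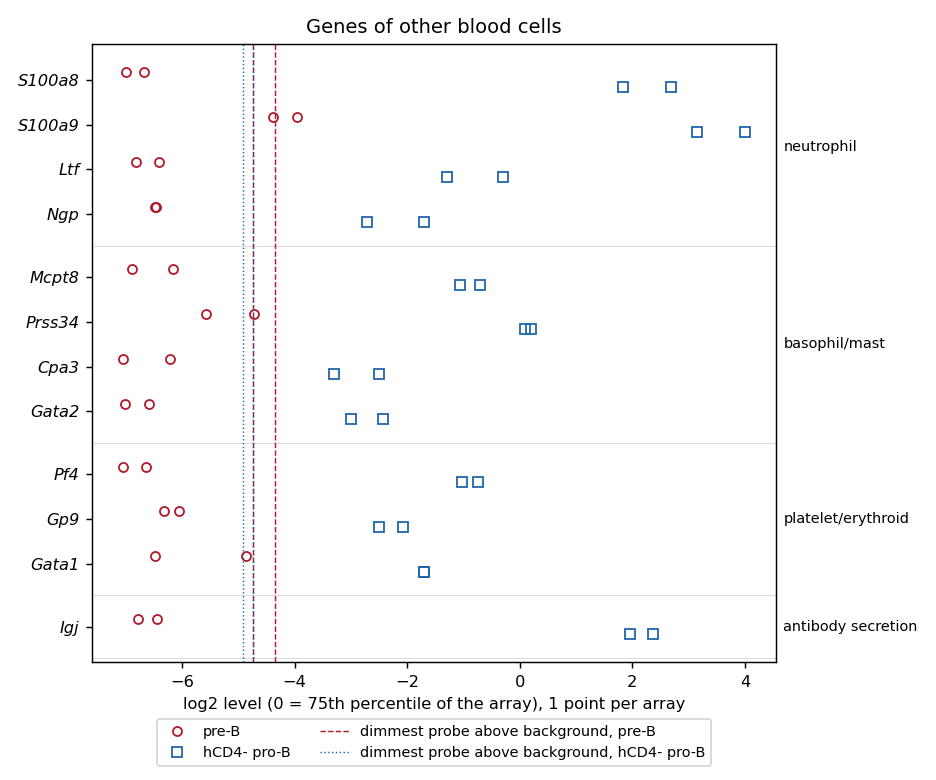
Log2 level of 12 genes of other blood cells on each pre-B array (red circles) and hCD4- pro-B array (blue squares); vertical lines mark the dimmest probe well above background on each array. On the pre-B side most genes lie left of these lines, while every hCD4- pro-B point lies right of them. S100a8, Ltf, Mcpt8, Pf4 and Igj were picked because both hCD4- pro-B arrays and no pre-B array measured them. For them this pattern follows from the choice. The other genes were picked for changes that passed in this comparison and were among the largest of their lists. Their separation follows from the choice too.

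T cell genes had 7 of 13 lower (53.8%, against 21.4% of all genes) and 1 higher (7.69%, against 19.7%). Their median was -1.23, with summed signals of 10.1 to 10.4 in pre-B and 19.2 to 20.6 in hCD4- pro-B. The adaptor Lat fell by 2.31 ± 0.19 and Lck, a Src-family kinase, by 1.17 ± 0.14, while the receptor chain Cd3d, not well above background in pre-B, was at least 2.02-fold lower than in hCD4- pro-B. Of 13 monocyte and macrophage genes 5 fell (38.5%, against 21.4% of all genes) and 1 rose (7.69%, against 19.7%), with a median of 0.06. Lyz1, a lysozyme, was at -3.03 ± 0.13. The summed signal of the 13 genes was 12.1 to 12.6 in pre-B and 14.6 to 15.7 in hCD4- pro-B. None of these rose without either pre-B array or hCD4- pro-B array 2. Of 6 natural killer cell genes, Klra7 rose (1.63 ± 0.52, lost without any 1 array, 1.59 to 1.66) and Klrb1c was at least 3.70-fold lower, or 2.45-fold without hCD4- pro-B array 2 and 5.58-fold without hCD4- pro-B array 1 (summed 3.01 to 3.25 in pre-B and 2.97 to 3.05 in hCD4- pro-B).

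Of 28 interferon response genes, 16 fell (57.1%, against 21.4% of all genes) and 2 rose (7.14%, against 19.7%) in pre-B cells, with a median of -0.87. Without hCD4- pro-B array 1 the number that rose was 1. Rtp4 was at 0.17 and -0.07 in pre-B and 2.06 and 2.31 in hCD4- pro-B (-2.14 ± 0.24, adjusted p = 0.000375). Ifi44 fell by 1.91 ± 0.14, Oas1a, a sensor of double-stranded RNA, by 1.82 ± 0.15, Usp18 by 1.41 ± 0.24 and Ifih1, another RNA sensor, by 1.38 ± 0.13. Against hCD4+ pro-B arrays of the same slide these changed by -1.18, -1.45, -1.23, -0.98 and -1.29. Gbp2, at -0.55 and -0.66 in pre-B against 0.96 and 0.92 in hCD4- pro-B, changed there by only -0.24 (adjusted p = 0.542). In that comparison 13 of the 28 genes were lower and 7 higher. Immediate early and handling stress genes had 1 of 19 higher (Btg2, 1.16) and 1 lower (Dnajb1, -0.82), both lost without any 1 of the 4 arrays (0.98 to 1.35 and -0.93 to -0.70), and their summed signal was 298 to 415 in pre-B and 317 to 407 in hCD4- pro-B.

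Placed along the 6 groups, several of these genes did not move in only 1 direction. Dntt averaged 5.38 in hCD4- pre-pro-B, 7.89 in hCD4- pro-B and 5.13 in pre-B arrays. Spib averaged 6.12 in hCD4- pre-pro-B and 6.47 in pre-B, with 4.35 in hCD4- pro-B between them. Ciita did likewise, at -1.51 in hCD4- pre-pro-B, -3.74 in hCD4- pro-B and -1.23 in pre-B. Myc was lower in hCD4- pre-pro-B (-4.43) than in pre-B (-1.52), and highest in GMP arrays (2.96). Il2ra and Ms4a1 were highest in pre-B of all 6 groups.

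**Figure D5:**
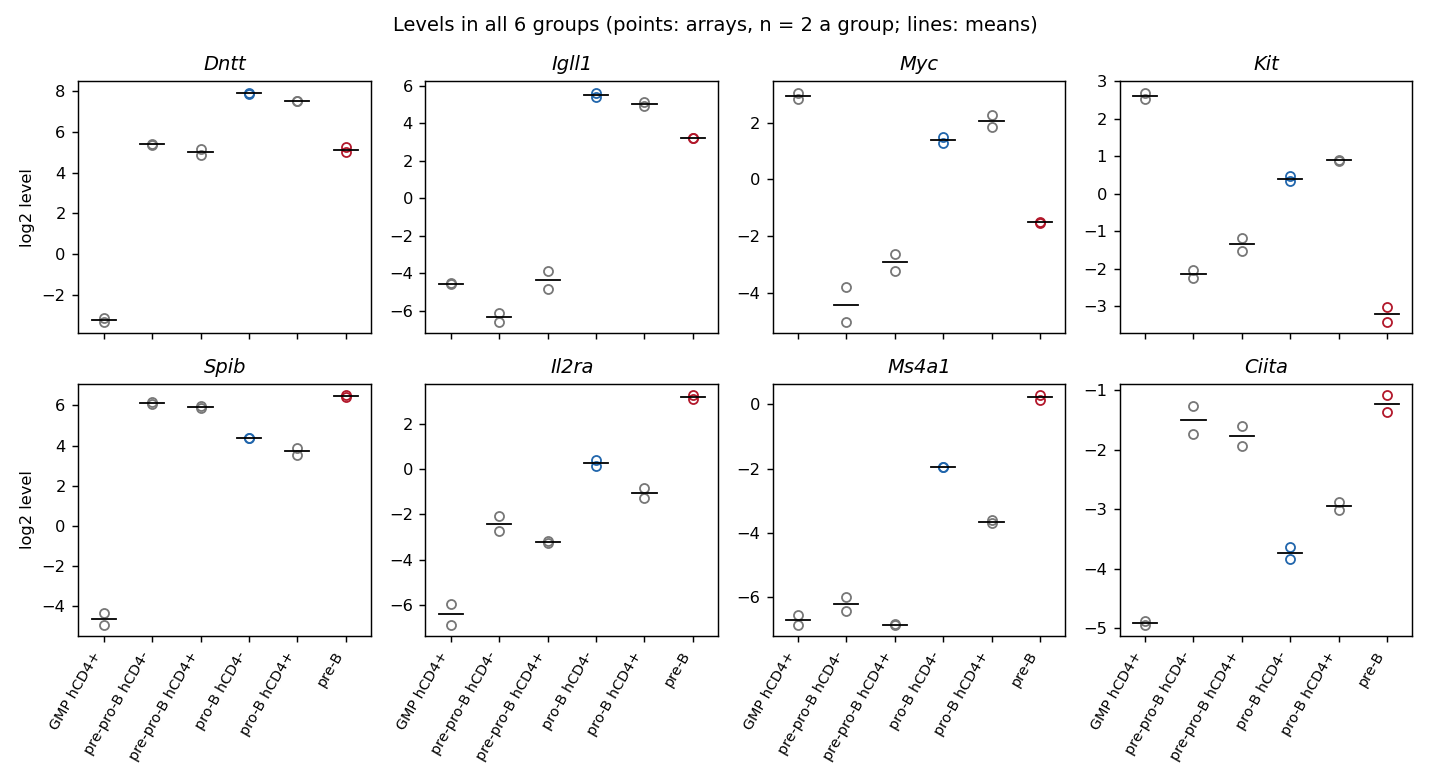
Log2 level of 8 genes in the 6 groups, from GMP on the left to pre-B on the right; points are arrays (2 a group), lines are means, blue marks hCD4- pro-B and red marks pre-B. Il2ra and Ms4a1 are highest in pre-B, whereas Spib and Ciita are lower in pro-B than in pre-pro-B and pre-B.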

How the data were processed

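Total RNA of marrow cells sorted by flow cytometry was amplified and labelled with Cy3, per the labels, and measured on 1-colour Agilent arrays. The deposited scanner files came from Feature Extraction 10.7.3.1 per the file headers, and their processed signal is a linear intensity with background already subtracted. Here spots flagged as outliers were removed (2469 spot values), spots of a probe were averaged, log2 was taken and each array's own 75th percentile was subtracted. A probe was kept where both arrays of some group marked it well above background, and each gene was represented by its brightest kept probe. The values in the authors' deposited processed data file are log2, whose scaling, centring and way of combining probes are not given in the sources used here. It served as an alternative. Its columns correlated at 0.94 to 0.954 with the scanner levels over 18535 genes, and only its gene names and values were used.

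Changes were tested with limma 3.58.1 (lmFit, eBayes) in R 4.3.3, with data.table of version 1.17.8 and jsonlite 2.0.0. One model of 6 group means over 12 arrays left 6 residual degrees of freedom, with 2.15 prior, and the script was tested on simulated data. P-values are two-sided with Benjamini-Hochberg adjustment. Precision is limited by having 2 arrays a group. The median SD between replicates was 0.110 in pre-B and 0.098 in hCD4- pro-B arrays.

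The comparison, the gene lists and the tests were chosen with earlier results of these data known. Genes named are a fixed list of B lineage genes, the 15 largest rises and 15 largest falls among genes that passed, lay above background on all 4 arrays and did not overlap, the 8 largest bounds each way, and up to 8 members per list with the largest changes that passed. Genes known only by clone or accession number are not named, and a few genes that these rules name are not reported here. Where another probe of a named gene differed by over 1, its change is printed. Names are those of the array annotation, in part older (Sfpi1 is Spi1, Igj is Jchain, Gpr97 is Adgrg3, Gpr56 is Adgrg1, Faim3 is Fcmr, Dfna5 is Gsdme). Ighm and Syk were not analysed here. Probe positions are on mm9 per the file headers, and promoter sequences are RefSeq's for GRCm38.p6. Alternatives varied the scaling, background correction, filters, probe choice, arrays in the fit and the source table. Plots used matplotlib 3.10.9 and Python 3.11.15.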

Additional observations from a re-analysis of the deposited data

How the results depend on the processing

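The 12 alternatives that kept all arrays of both groups gave 6612 to 9935 changed genes, against 7621 as reported, so none moved the count by over 1.5 times. Array median scaling moved the split to 2621 higher and 4916 lower (34.8% of changed genes higher, against 47.9%). Leaving out 1 array gave 4688 to 5340 changed genes, 2076 to 2443 higher and 2561 to 2897 lower, with a lone array assumed to vary like the other groups. Of 237 named genes, 219 passed, 165 of them under all alternatives that gave a value, and of the 18 that did not pass, 10 passed under at least 1. With levels below the dimmest measured probe set to that level, 2 genes changed sign, Bcl2a1d (0.27, adjusted p = 0.241) and Cx3cr1 (0.045, adjusted p = 0.862), both not well above background on most arrays. With the replicate number as a block, 8104 genes changed (3987 higher, 4117 lower), and 3 named calls were lost and 2 gained. Same-numbered arrays of the compared groups deviated together with a correlation of 0.152 (-0.0068 to 0.254 over the 15 pairs of groups), and nothing in the labels ties the numbers, so whether they pair the samples is not shown. A block for the slide was not run, since no slide holds both groups. Of 760 genes with no array of the 4 well above background, 122 passed (71 higher, 51 lower), and these changes rest on signal near background.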

Other observations

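Cebpa, whose regulatory sequence drives the reporter, was not well above background on any of the 4 arrays, with -5.58 and -6.26 in pre-B and -5.38 and -6.83 in hCD4- pro-B (0.18 ± 0.49, adjusted p = 0.792). Against the hCD4+ pro-B arrays of the same slide it was at least 7.24-fold lower in pre-B (adjusted p = 0.000263). Cd4, the mouse gene, rose by 0.71 ± 0.14 in pre-B against hCD4- pro-B (adjusted p = 0.00482), with 1.71 and 1.71 against 1.00 and 1.00, and whether its probe also reads the human reporter was not tested. That rise was lost in the authors' deposited table (0.20).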
